A study of Mus musculus with 6 samples.

Results

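The linker histone (H1) genes were followed in J774A.1, an established mouse cell line with macrophage features (strain Balb/c), with and without neuropeptide FF (NPFF), an RF-amide peptide of the nervous system. The 7 genes were H1f1, H1f2, H1f3, H1f4 and H1f5, whose transcripts are made with DNA replication, and H1f0 and H1f10, whose transcripts are not tied to it. A gene was measured when a feature of the array was paired with its symbol alone, and the brightest such feature was used. This gave 5 of the 7 genes, among 22180 genes in all: H1f1, H1f2, H1f3 and H1f5 of the replication-dependent class and H1f10 of the replication-independent class. Each of these had 1 feature. The linker histones of the replication-dependent class are close paralogues, and how far their probes tell them apart was not tested. H1f4 was paired only with a feature that also carries H2B symbols, so no value is given for it, and H1f0 was not analysed here. The replication-independent class therefore rests on 1 gene.

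Of 6 Affymetrix arrays, 3 held RNA from cells given NPFF at 1 nM in phosphate-buffered saline (PBS) for 18 h and 3 held RNA from cells given PBS alone for 18 h, called control. The sample titles call the controls non-treated. All cells grew in RPMI-1640 with fetal calf serum, and each group is 3 samples labelled as biological replicates of 1 cell line. The labels do not say whether these were cultured on separate days, so an SD measures the spread between these samples. A standard error (SE) rests on that spread too, but limma draws each gene's variance towards a value shared over all genes. Values are quantile-normalized log2 intensities, differences are NPFF minus control on the log2 scale, and levels of different genes are not set against each other because each rests on its own probes.

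Linker histones bind the DNA that enters and leaves the nucleosome core and promote folding of the chromatin fibre. The genes of the replication-dependent class lie among core histone genes and give transcripts that end in a stem-loop in place of a poly(A) tail, which are made in S phase and degraded when replication stops. H1f0 and H1f10 lie elsewhere and give polyadenylated transcripts; H1f0 is known for its accumulation in cells that have stopped dividing or differentiated. In macrophages, as in other cells, the subtypes are present together and their proportions vary with proliferation.

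The promoters of the 7 genes are shown because the genes of the replication-dependent class share letters there that H1f0 and H1f10 lack. In RefSeq's annotation of GRCm38.p6, all 5 replication-dependent genes are on chromosome 13. H1f3, H1f4, H1f2 and H1f1 lie in a run of 28 annotated genes of which 23 are histone genes, 5 of them linker histones, the germ-line H1f6 included. H1f5 lies next to the H3 gene H3c11 on the same chromosome. H1f0 is on chromosome 15, beside Gcat, and H1f10 on chromosome 6. The replication-dependent genes span 725 to 794 bases each, H1f10 spans 1062 and H1f0 2293. The 150 bases before each start site, 5′ to 3′ on the gene's strand, are from RefSeq (GRCm38.p6) at H1f5 chr13:21780626-21780775 (- strand), H1f2 chr13:23738657-23738806 (+ strand), H1f3 chr13:23554882-23555031 (+ strand), H1f4 chr13:23622559-23622708 (- strand), H1f1 chr13:23763518-23763667 (+ strand), H1f0 chr15:79028062-79028211 (+ strand) and H1f10 chr6:87981483-87981632 (- strand). Capitals mark matches on either strand to AAACACA (the H1 box, an element of linker histone promoters), CCAAT (the CCAAT box), TATANA (the TATA box, with N for any base) and GGGCGG (the GC box):
H1f5: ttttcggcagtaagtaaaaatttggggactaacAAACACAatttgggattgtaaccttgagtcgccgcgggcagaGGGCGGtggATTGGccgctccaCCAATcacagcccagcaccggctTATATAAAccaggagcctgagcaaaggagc
H1f2: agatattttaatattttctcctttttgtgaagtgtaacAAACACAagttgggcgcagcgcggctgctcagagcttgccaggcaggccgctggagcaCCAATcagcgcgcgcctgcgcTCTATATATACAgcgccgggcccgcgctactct
H1f3: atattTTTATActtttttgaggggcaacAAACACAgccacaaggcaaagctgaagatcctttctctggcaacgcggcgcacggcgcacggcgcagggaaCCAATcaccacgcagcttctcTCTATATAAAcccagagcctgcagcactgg
H1f4: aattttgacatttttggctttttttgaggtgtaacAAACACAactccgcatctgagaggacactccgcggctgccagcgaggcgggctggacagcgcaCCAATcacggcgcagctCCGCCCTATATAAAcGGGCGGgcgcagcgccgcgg
H1f1: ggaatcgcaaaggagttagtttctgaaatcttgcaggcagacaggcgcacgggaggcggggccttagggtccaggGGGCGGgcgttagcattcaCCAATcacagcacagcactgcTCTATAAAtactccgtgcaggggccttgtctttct
H1f0: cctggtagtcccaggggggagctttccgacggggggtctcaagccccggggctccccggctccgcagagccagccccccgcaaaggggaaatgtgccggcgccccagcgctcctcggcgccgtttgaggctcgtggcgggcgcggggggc
H1f10: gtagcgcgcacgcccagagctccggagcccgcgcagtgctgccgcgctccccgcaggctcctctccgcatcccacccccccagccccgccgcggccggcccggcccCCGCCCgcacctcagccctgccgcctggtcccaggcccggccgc

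All 5 replication-dependent promoters held a CCAAT box and a TATA box, and 4 of them an H1 box, whereas the promoters of H1f0 and H1f10 held none of these and only a GC box each, that of H1f0 lying across the start site and so not in the printed stretch. The search covered both strands of 300 bases, from 250 before to 50 after the start site; neighbouring TATANA matches overlap each other, and a match that reads the same on both strands was counted once. Over all 32851 RefSeq promoter windows of that length, 7.18% held an H1 box, 37.4% a CCAAT box, 24.7% a TATA box, 35.7% a GC box and 0.959% the first 3 together. The spacing was alike among the genes. The CCAAT box nearest to the TATA box began 56, 54, 51, 52 and 53 bases before the start site in H1f1, H1f2, H1f3, H1f4 and H1f5. The H1 box began 112, 122, 115 and 117 bases before it in H1f2, H1f3, H1f4 and H1f5; H1f1 had no match to these letters. In those 4 genes the H1 box was part of the longer run AACAAACACA, the longest around it that they share, which is found in 0.253% of all windows. All 5 genes share the run ACCAATCA around the CCAAT box, the longest that they share, found in 2.13% of all windows. Both runs were taken from these same promoters, so it was fixed in advance that these genes hold them. The arrangement is not particular to the replication-dependent class: the germ-line H1f6 of the same run of genes had an H1 box that began 114 bases, a CCAAT box 65 bases and a TATA box 43 bases before its start site. The base composition also separated the classes, with 45.7% to 54.3% G and C in the replication-dependent windows, 75% in H1f0 and 77.7% in H1f10. A match is a description of letters and not evidence of binding.

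**Figure D1:**
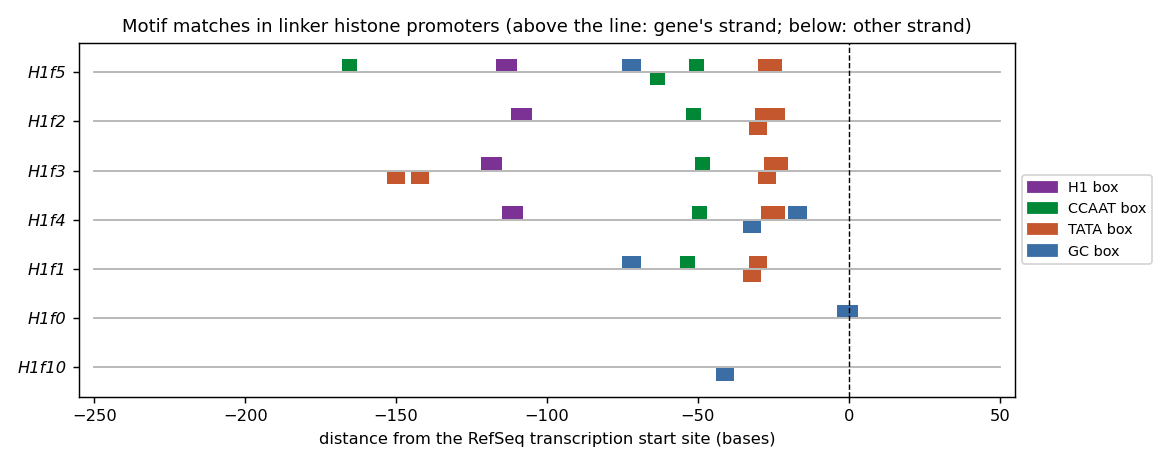
Position of each motif match (coloured boxes) in the promoter windows of the 7 linker histone genes, with distance from the RefSeq start site in bases on the horizontal axis and 1 line per gene; boxes above a line are on the gene's strand and boxes below on the other. The CCAAT and TATA boxes stand at nearly the same distance in H1f1 to H1f5, and H1f0 and H1f10 have 1 GC box each.

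The arrays were not equally alike, and this bears on every value that follows. The SD over genes of an array's departure from the mean of the other arrays was 0.37 in control 1 and 0.21 in control 2, against 0.11 to 0.13 in control 3 and the NPFF arrays. A typical gene (the median) had an SD of 0.14 over the controls and of 0.07 over the NPFF arrays. All 12 macrophage markers fixed as a check of the cell type had a feature, at the 58.8th to 99.9th percentile of mean signal; the highest of 18 measured markers of fibroblasts, epithelial cells and lymphocytes lay at the 62.7th. Such ranks mix the response of each probe with the abundance of its transcript, so they are a rough check of the label. Of the macrophage markers, 5 were higher and 7 lower in NPFF. Csf1r, at 0.46 (SE 0.20) or 0.22 without control 1, was the 1 of 12 with all NPFF arrays higher, beside 3.67% of all genes. Fcer1g, at -0.19 (SE 0.07), was the 1 of 12 with all NPFF arrays lower, beside 4.92% of all genes. In bulk RNA, fewer cells of a kind and less transcript per cell cannot be told apart, so a level of a replication-dependent histone mixes the share of cells in S phase with the transcript in each.

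The linker histone genes were selected on their NPFF minus control differences, which were known when they were chosen, so these are given as a description with no test. Over the 22180 genes, limma gave 0 (0%) at an adjusted p under 0.05 and 556 (2.51%) at an unadjusted p under 0.05. The measured linker histone genes were among those with no call after adjustment. All 5 had a difference above 0, as had 51.7% of all genes, but only H1f5 had all NPFF arrays above all control arrays, a pattern found in 3.67% of all genes.

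H1f5 (feature 17291005), a replication-dependent subtype of proliferating cells, read 9.36, 9.35 and 9.47 in controls 1 to 3 and 9.72, 9.70 and 9.52 in NPFF 1 to 3. Every NPFF array lay above every control, with the smallest gap between NPFF 3 and control 3. The group means were 9.39 ± 0.07 (SD, n = 3) and 9.65 ± 0.11 (SD, n = 3), a difference of 0.25 (SE 0.08), or 1.19-fold. Control 1 did not stand apart from control 2 for this gene, and the SD of 0.07 ranked at the 18.2nd percentile of genes. With single arrays left out the difference stayed between 0.22 and 0.32, and against control 3 alone it was 0.18.

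H1f2 (feature 17285859), one of the widely expressed replication-dependent subtypes, had the largest difference of the 5 genes, and 1 array decided it. It had control values of 9.11, 9.89 and 10.20 and NPFF values of 10.01, 10.19 and 10.04. Control 1 stood far below the other 5 arrays, and control 3 was the highest array, just above NPFF 2. The means were 9.73 ± 0.56 and 10.08 ± 0.10 (SD, n = 3 each), a difference of 0.35 (SE 0.26), or 1.28-fold. The control SD ranked at the 96.6th percentile of genes. Without control 1 the difference was 0.04, and against control 3 alone it was -0.11.

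H1f3 (feature 17285829), another replication-dependent subtype, had group means that hardly differed. It read 8.51, 8.43 and 8.33 in the controls, against 8.28, 8.32 and 8.69 with NPFF, so that NPFF 3 was the highest array and NPFF 1 the lowest. The means were 8.42 ± 0.09 and 8.43 ± 0.23 (SD, n = 3 each), a difference of 0.01 (SE 0.12). Here the NPFF group was the more variable, with an SD at the 98.2nd percentile of genes, and control 1 was the highest control. Without NPFF 3 the difference was -0.12.

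H1f1 (feature 17285879), the subtype whose promoter had no H1 box match, was dim, at the 12.5th percentile of mean signal, so its values are weak evidence on its transcript. It had control values of 5.02, 5.41 and 5.35 and NPFF values of 5.33, 5.51 and 5.34. Control 1 was again the lowest array, and the other 5 overlapped. The difference was 0.13 (SE 0.12) with all arrays and 0.01 without control 1.

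H1f10 (feature 17468702), the replication-independent subtype, read 6.75, 7.48 and 7.29 in the controls, against 7.18, 7.35 and 7.31 with NPFF. Controls 1 and 2 were the lowest and the highest of all arrays, with the NPFF arrays between them. The means were 7.17 ± 0.38 and 7.28 ± 0.09 (SD, n = 3 each), a difference of 0.11 (SE 0.18), or 1.08-fold. Without control 1 the difference was -0.10, without control 2 it was 0.26, and against control 3 alone it was -0.01.

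**Figure D2:**
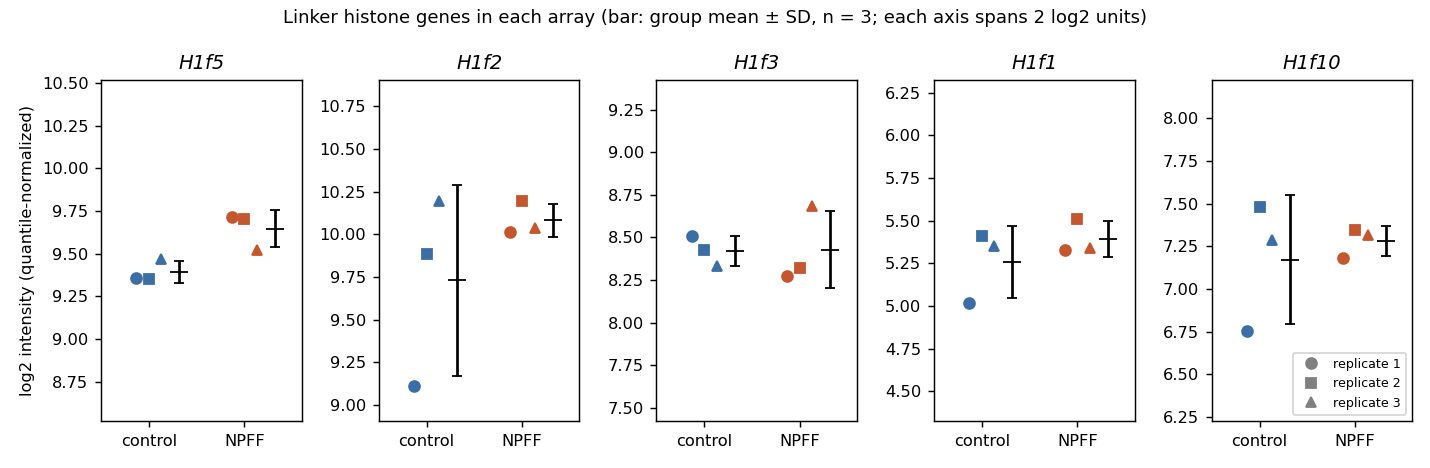
Quantile-normalized log2 intensity of the 5 measured linker histone genes in each array, 1 panel per gene, with symbols for the replicate number and bars for the group mean ± SD (n = 3). H1f5 is the gene whose groups do not overlap, and control 1 is the lowest array for H1f2, H1f1 and H1f10 but the highest control for H1f3.

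For the comparison of the classes, values are again given with no test. The mean over the 4 replication-dependent genes was 7.999, 8.27 and 8.34 in the controls, against 8.33, 8.43 and 8.40 with NPFF. Control 1 was the lowest and control 3 lay within the NPFF range. The class mean differed by 0.19, from 8.20 ± 0.18 to 8.39 ± 0.05 (SD, n = 3 each), and H1f10 by 0.11. Per array, the replication-dependent mean minus H1f10 was 1.25, 0.79 and 1.05 in the controls, against 1.16, 1.08 and 1.08 with NPFF. All 3 NPFF arrays lay between control 1 and control 2. The difference between the classes was 1.03 ± 0.23 for the controls and 1.11 ± 0.04 with NPFF (SD, n = 3 each), so the classes' responses were apart by 0.08, where the SD of single arrays, pooled over the groups, was 0.16. Without control 1 the replication-dependent mean differed by 0.09, H1f10 by -0.10 and the classes' responses by 0.19. Without control 2 the classes' responses differed by -0.04, on the other side of 0.

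**Figure D3:**
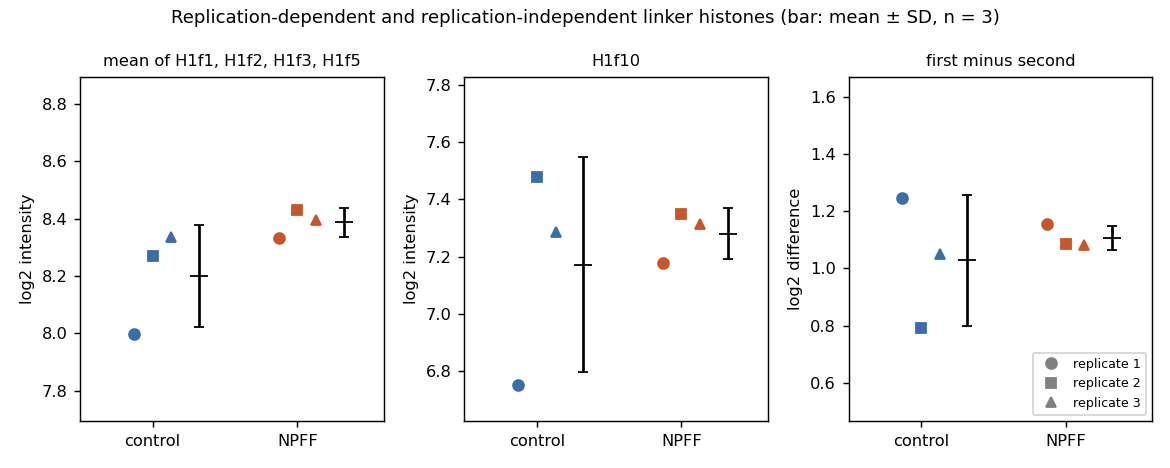
Mean log2 intensity of the 4 measured replication-dependent linker histones (left), H1f10 (middle) and the first minus the second (right) in each array, with bars for the group mean ± SD (n = 3). On the right the NPFF arrays, at 1.08 to 1.16, lie inside the control range of 0.79 to 1.25.

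**Figure D4:**
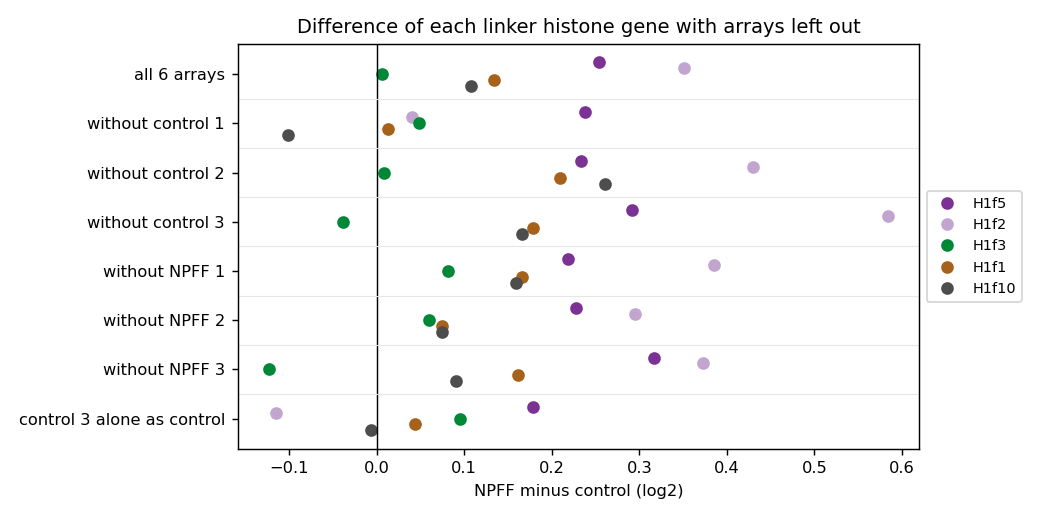
NPFF minus control difference (log2, horizontal axis) of each linker histone gene with all 6 arrays, with each array left out, and with control 3 alone as the control. H1f5 stays between 0.18 and 0.32 in these settings, whereas H1f2 runs from -0.11 to 0.58 and H1f10 from -0.10 to 0.26.

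Over the 6 arrays, which share the groups and control 1, Pearson's r was 0.91 between H1f1 and H1f2, 0.92 between H1f1 and H1f10 and 0.84 between H1f2 and H1f10. These values cross the classes, and without control 1 they were 0.28, 0.51 and -0.38. H1f3 had a negative r with each of the others, from -0.46 with H1f5 to -0.14 with H1f10, but the last was 0.28 without control 1. H1f5 and H1f10 had an r of 0.21, and of -0.71 without control 1. With 5 or 6 arrays these are descriptions only.

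Genes whose pattern over the 6 arrays was most like that of the replication-dependent mean were the adaptor Grb2, the centromere protein gene Cenpo, Diras1, the ribosome biogenesis factor Rrp12 and the lipase Daglb, with Pearson's r of 0.995 to 0.997 and Spearman's rho of 0.943 to 1. Without the arrays farthest from the median, control 1 and NPFF 2, their r was 0.969 to 0.999. The arrays kept had also served to choose these genes, so a high r there was favoured in advance. The likeness has a wide background: of 9994 named genes above the median signal, 1623 had an r above 0.9, and the median r was 0.58. For H1f10 the closest were Zfp382, Uck1 and Gga1, at r of 0.997 to 0.998, and 2108 genes had an r above 0.9. In each of these 8 genes control 1 was the lowest array.

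The other histone genes were read from the lists fixed for them, whose counts are set beside those over all genes: a median difference of 0.00 with 51.7% higher, and, without control 1, a median of -0.025 with 39.1% higher. The genes named from these lists, germ-line linker histones apart, are up to 4 per list with the smallest unadjusted limma p. That choice favoured larger differences and groups that do not overlap. Shares over all genes were not matched for signal. Of 60 replication-dependent core histones, 21 had a feature of their own: 6 H2A, 8 H2B and 7 H4 genes, and no H3 gene. By limma 0 of the 21 passed the adjusted threshold, 13 were higher and 8 lower in NPFF, and the median difference was 0.03. The median over the 4 linker histones of that class was 0.19, and the difference between these lists was not tested. Without control 1 the core median was -0.04 and 6 of 21 were higher. The 4 linker histones then had a median of 0.04 and were all above 0, but H1f1, H1f2 and H1f3 only at 0.01, 0.04 and 0.05. Against control 3 alone, 3 of the 4 were above 0. The H2B genes held the pair that did not overlap upwards. H2bc3 had control values of 10.31, 10.66 and 10.56 and NPFF values of 10.73, 10.77 and 10.68, a difference of 0.21 (SE 0.10). H2bc12 differed by 0.18 (SE 0.08), and without control 1 both stood at 0.11. The pair is 2 of 21 core genes, beside 3.67% of all genes with that pattern. H2bc18 differed by 0.12 (SE 0.08), and H2bc21 by -0.19 (SE 0.16), or -0.06 without control 1. Among H2A genes, differences were 0.17 (SE 0.16) for H2ac20, 0.13 (SE 0.15) for H2ac1, -0.09 (SE 0.17) for H2ac21 and 0.03 (SE 0.07) for H2ac10. Without control 1 the first 3 turned sign, to -0.03, -0.04 and 0.05, and H2ac10 stood at 0.07. Among H4 genes, they were 0.22 (SE 0.25) for H4c14, which turned to -0.04 without control 1, -0.15 (SE 0.12) for H4c1, which moved to -0.27, -0.08 (SE 0.06) for H4c8 and -0.03 (SE 0.06) for H4c12. H4c8 was the core gene with all NPFF arrays lower, a pattern of 4.92% of all genes, but it lay at the 2.8th percentile of mean signal.

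Of 11 variant core histones, 8 were measured, and 5 were higher and 3 lower in NPFF, with a median of 0.09. H2ax, the H2A form phosphorylated at DNA breaks, read 8.93, 11.25 and 11.08 in the controls, against 11.39, 11.43 and 11.25 with NPFF. Control 1 lay far below the rest, and the difference of 0.94 (SE 0.59) was 0.20 without it. Macroh2a1, a variant of silent chromatin, had control values of 10.15, 10.43 and 10.41 and NPFF values of 10.60, 10.72 and 10.50. Its groups did not overlap, and the difference was 0.28 (SE 0.10), or 0.18 without control 1. H2ax and Macroh2a1 were the 2 of 8 variants with all NPFF arrays higher, beside 3.67% of all genes. For H2ax this was by a hair, as NPFF 3 and control 2 both read 11.25. H2az2 differed by 0.11 (SE 0.07) and the centromeric H3 form Cenpa by 0.18 (SE 0.13), or 0.07 and 0.04 without control 1. The germ-line linker histones H1f6, H1f7 and H1f8, which a macrophage is not known to make, were dim, at the 14.7th to 33.5th percentile, and differed by 0.02 (SE 0.06), -0.04 (SE 0.07) and 0.10 (SE 0.11). H1f9 was not analysed here.

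Genes that make and process replication-dependent histone transcripts were higher in 15 of 20 measured cases, with a median of 0.11, and in 10 of 20 without control 1, with a median of 0.01, where 39.1% of all genes were higher. Casp8ap2 (FLASH), which is needed for histone transcription and 3′ end cleavage, was the 1 gene of these 20 with no overlap, beside 3.67% of all genes. It read 8.22, 8.64 and 8.66 in the controls, against 8.82, 8.83 and 8.82 with NPFF. Its difference was 0.32 (SE 0.13), or 0.17 without control 1. The polyadenylation factor Cstf2 differed by 0.18 (SE 0.11), the decay factor Upf1 by 0.23 (SE 0.15) and Srrt (ARS2) by 0.32 (SE 0.23), and these were 0.07, 0.06 and 0.05 without control 1.

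Chaperones and chromatin partners of H1 were higher in 9 of 15 cases, with a median of 0.13, and in 13 of 15 without control 1, with a median of 0.10. Nasp, a chaperone of linker and core histones, had control values of 8.32, 8.53 and 8.58 and NPFF values of 8.60, 8.75 and 8.64, with no overlap and a difference of 0.18 (SE 0.09), or 0.10 without control 1. Hmgb3, of a family that shares linker DNA sites with H1, read 9.28, 9.12 and 9.21 in the controls, against 9.33, 9.44 and 9.40 with NPFF. It again had no overlap, and differed by 0.19 (SE 0.07), or 0.22 without control 1. Nasp and Hmgb3 were the 2 of these 15 genes with all NPFF arrays higher, beside 3.67% of all genes. Set, another histone chaperone, differed by 0.30 (SE 0.14) and the heterochromatin protein gene Cbx5, which binds H1 among other partners, by 0.29 (SE 0.15), or 0.15 and 0.12 without control 1.

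DNA replication and S-phase genes, the cell-cycle setting of the replication-dependent class, were higher in 32 of 33 measured cases, with a median of 0.19. In 15 of the 33 all NPFF arrays lay above all controls, against 3.67% of all genes. The list is bright, with its median at the 87.5th percentile of mean signal, and the share among equally bright genes was not computed. By limma 0 of 33 passed the adjusted threshold. Without control 1 the median was 0.09 and 32 of 33 were higher, and against control 3 alone it was 0.09 with 31 of 33 higher. The nucleotide salvage kinase Tk1 differed by 0.38 (SE 0.13) and the replication helicase subunit Mcm7 by 0.27 (SE 0.12). The H3-H4 chaperone Asf1b differed by 0.20 (SE 0.08) and the maintenance methyltransferase Dnmt1 by 0.16 (SE 0.07). None of these 4 overlapped, which their choice by smallest unadjusted limma p favoured. Without control 1 they stood at 0.23, 0.15, 0.13 and 0.11. Of the measured linker histones, 1 of 5 showed that pattern. Whether the linker histones differ from the S-phase genes in this was not tested, since the linker histones were selected on this same comparison.

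**Figure D5:**
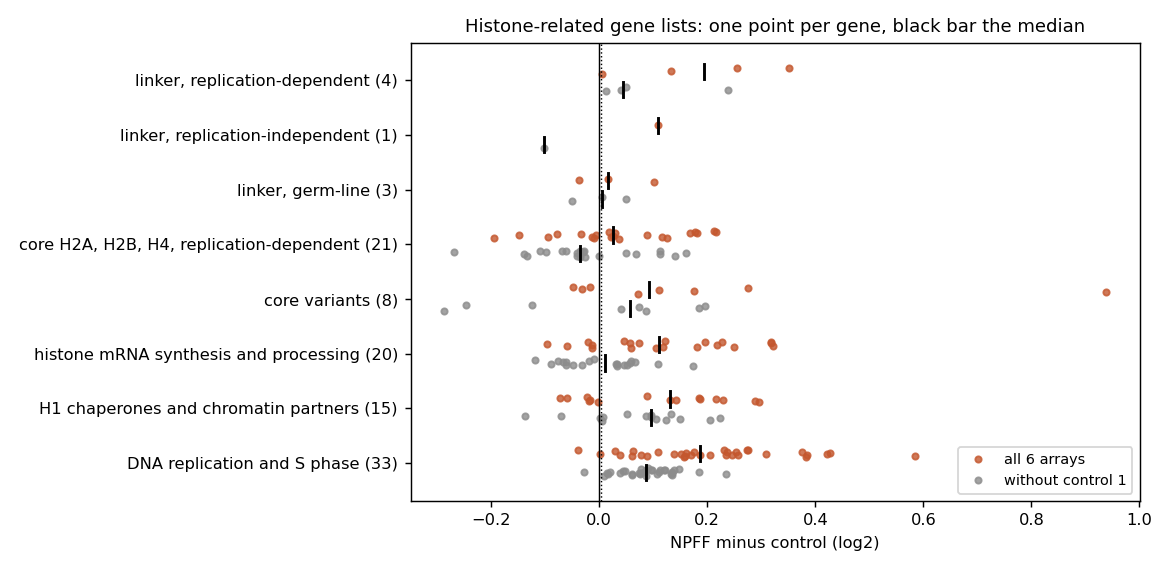
NPFF minus control difference (log2) of each measured gene in 8 lists, with all 6 arrays (orange) and without control 1 (grey); the number of genes is in brackets, black bars are list medians and the dotted line is the median of all genes. The S-phase genes lie mostly right of 0 in both, while the core histone median moves from 0.03 to -0.04.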

How the data were processed

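The values deposited by the authors are intensities of transcript clusters, taken to be log2 since they run from 4.59 to 14.0; the labels name a whole-transcript terminal labelling kit of Affymetrix, and the scanner software, background correction, normalization and genome build are not stated in the labels or files used here. Of 33794 features, a platform annotation table paired 23521 with 1 symbol, 1814 with several and 8459 with none. The deposited columns did not share 1 distribution, so all features were quantile-normalized. The brightest feature of each symbol was kept, which gave 22180 genes, 1082 of them with several features. NPFF was compared with control by limma 3.58.1 (R 4.3.3; lmFit and eBayes, group as the only term, 4 residual degrees of freedom). Two-sided p-values were adjusted by Benjamini and Hochberg's method over the 22180 genes, and 0.05 was the threshold. Standard errors are from that fit and are moderated, with 2.49 prior degrees of freedom for the variance shared over genes. The fit was tested on simulated data with 1 SD for all genes and both groups. In the real arrays the median SD was 0.14 over the controls and 0.07 over the NPFF arrays, so that test does not cover unequal groups. No 2 arrays held identical values. Arrays carry no counting depth, and 3 per group limit the precision.

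The members, gene lists and alternatives were chosen with earlier results of these data known. Named were all measured members and germ-line linker histones, up to 4 genes of smallest unadjusted p per histone-related list, and the 5 or 3 genes above the median signal, with predicted genes left out, of highest r to the replication-dependent mean or H1f10. The same was planned for H1f0, which was not analysed here. The longer runs around the H1 box and the CCAAT box were taken from these same promoters, and that around the H1 box was looked for after the sequences were seen. Alternatives covered other normalizations, feature and dimness rules, array weights, a replicate block and arrays left out.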

Additional observations from a re-analysis of the deposited data

How the results depend on the processing

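Over other normalizations, array weights and arrays left out, H1f5 lay between 0.18 and 0.32, H1f1 between 0.013 and 0.21 and the replication-dependent mean between 0.046 and 0.25. H1f1 fell below the dimness filter, and the mean over a gene's features cannot change a member, since each has 1. With single arrays left out the replication-dependent mean ran from 0.09 to 0.25, H1f10, the only measured replication-independent gene, from -0.10 to 0.26, the classes' difference from -0.041 to 0.19, H1f3 from -0.12 to 0.082 and the core histone median from -0.036 to 0.079. With control 3 alone as control, the replication-dependent mean was 0.051, H1f10 -0.0065, H1f2 -0.11 and the core histone median -0.027. With array weights, whose estimation did not converge and where control 3 weighed 22.6 and control 1 weighed 0.0773, they were 0.046, -0.021, -0.11 and -0.036, the median of the histone mRNA list was -0.0020, and 1127 genes passed the adjusted threshold, against 0 in every other setting. H1f3 turned to -0.014 with cyclic loess, to -0.04 without control 3 and to -0.12 without NPFF 3. The core median turned to -0.036 without control 1. The cause was not tested. Without the dim H1f1, a choice made after seeing the data, the replication-dependent mean was 0.20 and the classes' difference 0.10.

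The replicate numbers are shared by the groups. Deviations of same-numbered arrays correlated at 0.23, 0.45 and -0.33. Control 1 correlated best with NPFF 3, at 0.31, while control 2 correlated best with NPFF 2. With 3 arrays per group these values cannot tell whether same-numbered arrays were paired. With the replicate number as a block, which in this balanced design cannot change a difference of group means (H1f5 0.25, replication-dependent mean 0.19), 0 genes passed after adjustment, and 396 in place of 556 genes had an unadjusted p under 0.05. That count was 235, 268 and 304 without NPFF 1, 2 or 3, and 2397, 658 and 937 without control 1, 2 or 3.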
